A study of Mus musculus with 12 samples.

Results

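Phase II conjugation enzymes attach a polar group to drugs, hormones, bile acids and reactive metabolites, so that the liver can excrete them. Glutathione S-transferases (GST) couple electrophiles to glutathione, UDP-glucuronosyltransferases (UGT) transfer a sugar from a UDP-sugar, mostly glucuronic acid, and cytosolic sulfotransferases (SULT) transfer sulfate from the donor PAPS. All 3 classes are abundant in hepatocytes, and their transcription is known to respond to the xenobiotic receptors CAR, PXR and AHR and, for many GST genes, to the oxidative stress factor Nrf2. The genes described here were those whose symbol names a soluble Gst gene, a Ugt1, Ugt2 or Ugt3 gene or a Sult gene, read by a probe set annotated with that symbol alone and with a log2 value over 5 in at least 2 arrays of a treatment group. Where several probe sets read the same gene, the brightest was used. In all, 43 of the 28213 probe sets of the array were included, namely 19 GST, 10 UGT and 14 SULT genes.

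The livers came from C57BL/6 mice that had received a subcutaneous dose 6 h earlier, with 3 arrays each for Albulin (insulin fused to albumin), Insulin-Apo (human apolipoprotein A-I with a single-chain insulin at its N-terminus), insulin glargine (a long-acting insulin analogue) and saline. Each insulin derivative was given at 55 nmol/kg. The sample labels give an age of 6 weeks, no mouse carried a transgene or a deletion, and both fusion proteins were made in Escherichia coli. The insulin glargine arrays are known here from the labels only, and no source says whether their RNA was processed together with that of the other groups, so a difference in processing and an effect of insulin glargine cannot be told apart. Nor is it stated that every array stands for another mouse, and the tests therefore measure the spread between arrays, which may be technical.

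The values are log2 expression values. The median of an array lay between 7.695 and 7.77. Within a group an array correlated with the others at a mean r of 0.990 to 0.997, and insulin glargine replicate 3 had the lowest. Markers of hepatocytes were bright in all 4 groups, with the 7 markers measured summing to a level of 17.3 to 17.4 on the log2 scale in every array, while the 5 cholangiocyte markers summed to 9.79 to 10.06. A probe set was called when its B statistic in limma, the log odds that its expression differs, was over 0. The fold changes below are differences of log2 values, and p-values were adjusted with the Benjamini-Hochberg method over all probe sets tested. Over all probe sets tested the median log2 fold change was between -0.02 and 0.02 in each of the 6 comparisons. Probe sets differ in their probes, so values were compared between groups and not between genes.

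Of the 45 symbols that matched, Sult2a6 (mean 4.87, over 5 in 1 array) and Sult6b1 (mean 4.68, over 5 in 0 arrays) stayed just below the filter. Sult1c1 (mean 4.98, over 5 in 6 arrays) and Sult6b2 (mean 5.28) were just above it, and 42 of the 43 genes passed in all 4 groups. As an example from each family, the mean over the 12 arrays was 13.37 for Gsta3, 13.55 for Gstm1, 13.09 for Gstp1, 12.11 for Gstt1, 11.75 for Gsto1, 13.51 for Gstk1, 13.60 for Ugt2b36, 13.52 for Ugt3a2 and 13.37 for Sult1d1, levels of different probe sets that give no order of the genes. No Ugt1 gene was read by a probe set of its own. Members of these families are similar in sequence, and cross-hybridisation between them was not tested.

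Most conjugation enzyme genes were not called in any comparison. The moderated F test over all 12 arrays called 7 of the 43 genes as differing among the 4 treatments (16.3%), against 13.3% of all probe sets. These were the GST genes Gsta3, Gstm1, Gstt2 and Gstt3, the UGT gene Ugt2b35 and the SULT genes Sult1a1 and Sult1e1, and every gene called in a comparison of 2 groups was among them. Gstt2, Ugt2b35, Sult1a1 and Sult1e1 kept an adjusted p under 0.05 in this test in all 21 alternatives, Gsta3 and Gstt3 in 17 and Gstm1 in 12. In the comparisons with saline, 2 of the 43 genes were called after Albulin (4.65%, against 2.41% of all probe sets), 1 after Insulin-Apo (2.33%, against 2.14%) and 2 after insulin glargine (4.65%, against 4.84%). The shares after Insulin-Apo and insulin glargine were close to those of all probe sets.

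**Figure D1:**
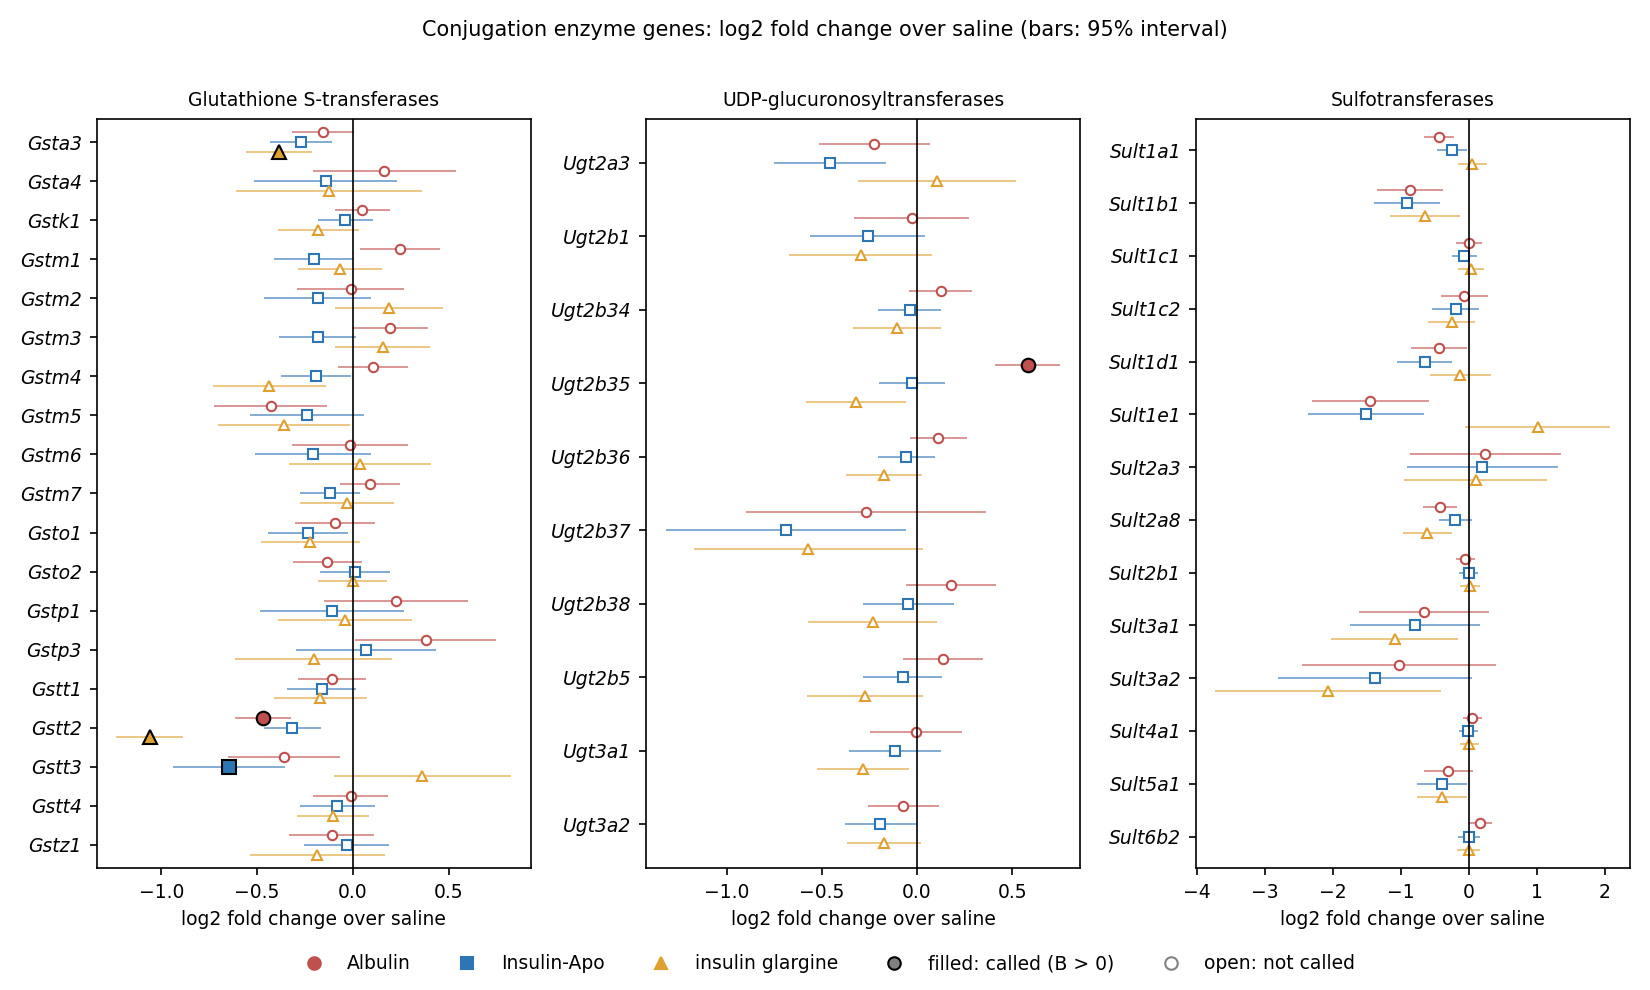
Log2 fold change over saline (horizontal axis, with its 95% confidence interval) of the 19 GST, 10 UGT and 14 SULT genes after Albulin, Insulin-Apo and insulin glargine, with filled symbols for called genes and a wider axis for the SULT genes. After Albulin Ugt2b35 lies at 0.58 and Gstt2 at -0.47, after Insulin-Apo Gstt3 lies at -0.65, and after insulin glargine Gstt2 lies at -1.06 and Gsta3 at -0.39, while all other symbols are open.

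Promoters of 3 of these genes are shown as the RefSeq sequence of GRCm38.p6, from 250 bases before to 50 bases after the annotated start, to show where 3 of the motifs searched lie in genes that were called. Capitals mark a match to the FoxO motif GTAAACA in Ugt2b35 (chr5:87000610-87000909, plus strand), to the antioxidant response element TGACNNNGC, to which Nrf2 binds, in Gsta3 (chr1:21240335-21240634, plus strand) and to the D-box TTANGTAA in Sult1a1 (chr7:126676369-126676668, minus strand).
Ugt2b35: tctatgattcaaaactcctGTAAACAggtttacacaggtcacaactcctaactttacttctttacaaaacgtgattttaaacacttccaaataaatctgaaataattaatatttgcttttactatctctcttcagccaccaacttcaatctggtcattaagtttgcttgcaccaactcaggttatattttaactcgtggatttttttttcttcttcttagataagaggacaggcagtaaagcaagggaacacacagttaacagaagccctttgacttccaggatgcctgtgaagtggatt
Gsta3: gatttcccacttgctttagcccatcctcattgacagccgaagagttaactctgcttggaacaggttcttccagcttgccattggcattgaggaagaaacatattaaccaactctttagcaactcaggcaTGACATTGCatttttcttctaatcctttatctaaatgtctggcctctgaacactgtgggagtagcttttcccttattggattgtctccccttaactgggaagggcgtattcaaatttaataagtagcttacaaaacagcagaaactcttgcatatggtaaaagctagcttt
Sult1a1: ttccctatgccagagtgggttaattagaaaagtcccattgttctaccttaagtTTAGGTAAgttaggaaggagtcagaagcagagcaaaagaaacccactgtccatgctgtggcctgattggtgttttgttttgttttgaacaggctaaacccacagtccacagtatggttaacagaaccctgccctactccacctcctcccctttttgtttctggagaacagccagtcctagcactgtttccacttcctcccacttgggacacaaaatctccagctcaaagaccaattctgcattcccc

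Of the 43 genes, 39 had a promoter in the RefSeq table, and Gsta4, Gstt2, Sult4a1 and Ugt3a2 had none. Both strands were searched for 7 motifs. The 39 genes had 50 promoters in the table, and the shares below are of promoters. The FoxO motif was in the promoters of Ugt2b35, Ugt2b37, Ugt2b38 and Sult1d1. These were 4 of the 50 promoters, against 3.65% of the 32851 promoters of the table. The antioxidant response element was found in Gsta3, Gstm5 and Gstm7 (12.4% of all promoters), and the D-box in Sult1a1 and Ugt2b1 (2.32%). The core of the xenobiotic response element, GCGTG, was found in 9 of the 50 promoters, of 7 genes including Gstm1 (32.4% of all promoters). It overlapped the antioxidant response element in Gstm5. A STAT motif, TTCNNNGAA, was found in Gstm6 and Sult3a1 (8.30%), and the E-box CACGTG (7.15%) and the HNF1 motif (0.140%) in 0 of the 39 genes. No promoter window of Gstt3 or Sult1e1 held any of the 7. These matches are descriptions of the letters only.

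Ugt2b35 was the conjugation enzyme gene that rose after Albulin. It encodes an enzyme of the UGT2B subfamily, which glucuronidates steroids and many drugs. Its log2 values were 12.42, 12.31 and 12.58 after Albulin, 11.85, 11.79 and 11.85 after Insulin-Apo, 11.69, 11.72 and 11.20 after insulin glargine, and 11.92, 11.77 and 11.89 after saline. All 3 Albulin arrays were above all 9 other arrays. The log2 fold change of Albulin over saline was 0.58 (standard error 0.08, adjusted p = 0.00301, limma), and the 95% confidence interval of the ratio was 1.33-fold to 1.69-fold. It was 0.61 over Insulin-Apo (adjusted p = 0.0171, limma) and 0.90 over insulin glargine (adjusted p = 0.00056, limma). All 3 calls were kept in every alternative tried, 22 for the first and second and 24 for the third. After Insulin-Apo the log2 fold change over saline was -0.03, with a 95% confidence interval of -0.20 to 0.15. After insulin glargine it was -0.32 (adjusted p = 0.124, limma), and insulin glargine replicate 3 was the lowest of the 12 arrays.

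The other 9 UGT genes were not called in any of the 6 comparisons. After Albulin, 5 of the 10 UGT genes had a positive log2 fold change over saline. Among these, Ugt2b36, Ugt2b5 and Ugt2b38 had values of 0.11, 0.14 and 0.18. In the order of the RefSeq genes, Ugt2b35 lies between Ugt2b1 and Ugt2b36. Ugt2b1 averaged 12.65 after Albulin and 12.68 after saline. Ugt2b37 had a value of -0.27 after Albulin, -0.69 after Insulin-Apo and -0.57 after insulin glargine, with arrays between 8.34 and 10.17. All 10 genes had negative values after Insulin-Apo, with a median of -0.10, and without Insulin-Apo replicate 2 the median was -0.05 with 9 of 10 negative (without replicate 3, -0.17). After insulin glargine 9 of 10 were negative, with a median of -0.25, and without insulin glargine replicate 3 the median was -0.09 with 8 of 10 negative. Between the fusion proteins, all 10 had higher means after Albulin than after Insulin-Apo, with a median log2 fold change of 0.22, which was 0.12 without Insulin-Apo replicate 2 and 0.13 without Albulin replicate 3. At an unadjusted p under 0.05, 1 of the 10 UGT genes was higher after Albulin than after saline (8.98% of all probe sets), 3 were lower after Insulin-Apo (8.28%) and 2 after insulin glargine (11.9%). Ugt2a3 had log2 values of 13.12, 13.03 and 12.31 after insulin glargine, and 12.60, 12.79 and 12.75 after saline. With all arrays its difference between Insulin-Apo and insulin glargine was -0.56 (adjusted p = 0.0852, limma), and this was called when insulin glargine replicate 3 was left out. Ugt3a1 and Ugt3a2, whose human counterparts use other UDP-sugars than glucuronic acid, had log2 fold changes over saline between -0.29 and -0.01.

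Among the GST genes, Gstt2 fell most clearly. It encodes a theta class enzyme, a class that acts on small electrophiles and peroxides. Arrays read 10.50, 10.53 and 10.36 after Albulin, 10.59, 10.63 and 10.62 after Insulin-Apo, 9.97, 9.93 and 9.71 after insulin glargine, and 10.998, 10.92 and 10.87 after saline. Every array of the 3 derivatives was below every saline array, and the insulin glargine arrays were below all others. Gstt2 fell by 1.06 on the log2 scale after insulin glargine (standard error 0.08, adjusted p = 1.7e-05, limma) and by 0.47 after Albulin (standard error 0.07, adjusted p = 0.00382, limma), or to 0.479 and 0.723 of the saline level. For Insulin-Apo the value was -0.32 (95% confidence interval -0.46 to -0.17, adjusted p = 0.0279, limma) with B just under 0, and it was called at the same value when Albulin replicate 3 was left out. Albulin and Insulin-Apo arrays were both higher than insulin glargine arrays, by 0.59 (adjusted p = 0.000582, limma) and 0.75 (adjusted p = 0.000134, limma). The calls against insulin glargine and of insulin glargine against saline were kept in all 24 alternatives, and that of Albulin in 21 of 22, the exception being the rule that asks for a log2 change of at least 0.58.

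Gstt3, another theta class gene, fell after Insulin-Apo. Its log2 values were 11.80, 11.88 and 11.61 after Albulin, 11.25, 11.38 and 11.80 after Insulin-Apo, 12.95, 12.59 and 11.92 after insulin glargine, and 12.23, 12.16 and 11.97 after saline. The Albulin and Insulin-Apo arrays lay below the saline arrays, and insulin glargine replicates 1 and 2 above them. It changed by -0.65 on the log2 scale with Insulin-Apo (standard error 0.13, adjusted p = 0.0252, limma), and the values were -0.36 with Albulin (adjusted p = 0.170, limma) and 0.36 with insulin glargine (adjusted p = 0.371, limma). The call after Insulin-Apo was kept in 11 of 22 alternatives only. It was lost when any of 7 arrays was left out (Albulin replicates 1 and 2, Insulin-Apo replicates 1 and 2, and each saline replicate), with log2 fold changes of -0.72 to -0.53. The difference of Insulin-Apo from insulin glargine was -1.01 (adjusted p = 0.00898, limma) with B just under 0, and it was called without insulin glargine replicate 3 (-1.29) or Insulin-Apo replicate 3 (-1.17). That of Albulin from insulin glargine was -0.73 (adjusted p = 0.0536, limma) and was called without insulin glargine replicate 3 (-1.01). Gstt1 and Gstt4, which lie between Gstt3 and Gstt2 on chromosome 10 in the order of the RefSeq genes, had log2 fold changes over saline between -0.17 and -0.01 in the 3 comparisons.

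Gstm1, a mu class gene whose enzyme conjugates epoxides and other electrophiles, was higher after Albulin than after Insulin-Apo. On the log2 scale it was at 13.79, 13.70 and 13.92 after Albulin, 13.40, 13.19 and 13.46 after Insulin-Apo, 13.64, 13.40 and 13.42 after insulin glargine, and 13.71, 13.50 and 13.46 after saline. The Albulin and Insulin-Apo arrays did not overlap, the saline arrays overlapped with the Albulin arrays, and the lowest saline array and the highest Insulin-Apo array were both at 13.46. Albulin exceeded Insulin-Apo by 0.45 on the log2 scale (standard error 0.09), a difference called by B but with an adjusted p of 0.0938 (limma). In that comparison 2 of the 43 genes were called (4.65%, against 0.639% of all probe sets), Ugt2b35 being the other. The Gstm1 call was kept in 10 of 22 alternatives and was lost without any of 7 arrays (all Albulin replicates, Insulin-Apo replicates 1 and 2, and saline replicates 2 and 3), with log2 fold changes of 0.37 to 0.51. Against saline, the values of Gstm1 were 0.25 for Albulin (adjusted p = 0.190, limma) and -0.21 for Insulin-Apo (adjusted p = 0.294, limma). Of the 7 Gstm genes, 6 had a higher mean after Albulin than after Insulin-Apo, with a median of 0.21, and 4 of those were higher at an unadjusted p under 0.05, as were 6.44% of all probe sets. All 7 had negative log2 fold changes over saline after Insulin-Apo, between -0.24 and -0.12, and none was called (1 lower at an unadjusted p under 0.05, against 8.28% of all probe sets).

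Gsta3, an alpha class gene whose enzyme detoxifies aflatoxin in the mouse, fell after insulin glargine. Its log2 values were 13.43, 13.34 and 13.47 after Albulin, 13.32, 13.16 and 13.40 after Insulin-Apo, 13.31, 13.13 and 13.10 after insulin glargine, and 13.57, 13.60 and 13.54 after saline. All 9 arrays of the derivatives were below the 3 saline arrays. Relative to saline it fell by 0.39 on the log2 scale after insulin glargine (standard error 0.08, adjusted p = 0.00805, limma), and the values were -0.27 for Insulin-Apo (adjusted p = 0.0691, limma) and -0.16 for Albulin (adjusted p = 0.298, limma). The call was kept in 10 of 24 alternatives, with an adjusted p of 0.0057 to 0.0372 throughout. It was lost without any of 9 arrays (all Albulin and all saline replicates, Insulin-Apo replicate 1 and insulin glargine replicates 2 and 3), with log2 fold changes of -0.40 to -0.35.

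The remaining 15 GST genes were not called. Gstp1 and Gstp3, of the pi class, had log2 fold changes over saline of 0.23 and 0.38 after Albulin, with 95% confidence intervals that reached 0.60 and 0.75. The Albulin arrays of Gstp3 (8.94 to 9.17) lay above its saline arrays (8.52 to 8.83), and those of Gstp1 overlapped with saline. Gstm5 had log2 fold changes of -0.43, -0.24 and -0.36 after Albulin, Insulin-Apo and insulin glargine, and Gstm4 had -0.44 after insulin glargine (adjusted p = 0.0609, limma). Gstz1, which also takes part in tyrosine breakdown, Gstk1, a kappa class gene of mitochondria and peroxisomes, and Gsto1 and Gsto2, of the omega class, had values between -0.24 and 0.05. At an unadjusted p under 0.05, 2 of the 19 GST genes were higher and 3 lower after Albulin (8.98% and 9.08% of all probe sets). At this threshold 5 were lower after Insulin-Apo (8.28%) and 4 after insulin glargine (11.9%), and 0 were higher. Over all 19 GST genes the median log2 fold change was -0.01 after Albulin, -0.18 after Insulin-Apo and -0.13 after insulin glargine. Without Insulin-Apo replicate 2 the second was -0.12, and the third was -0.05 without insulin glargine replicate 3 and -0.06 without saline replicate 1.

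**Figure D2:**
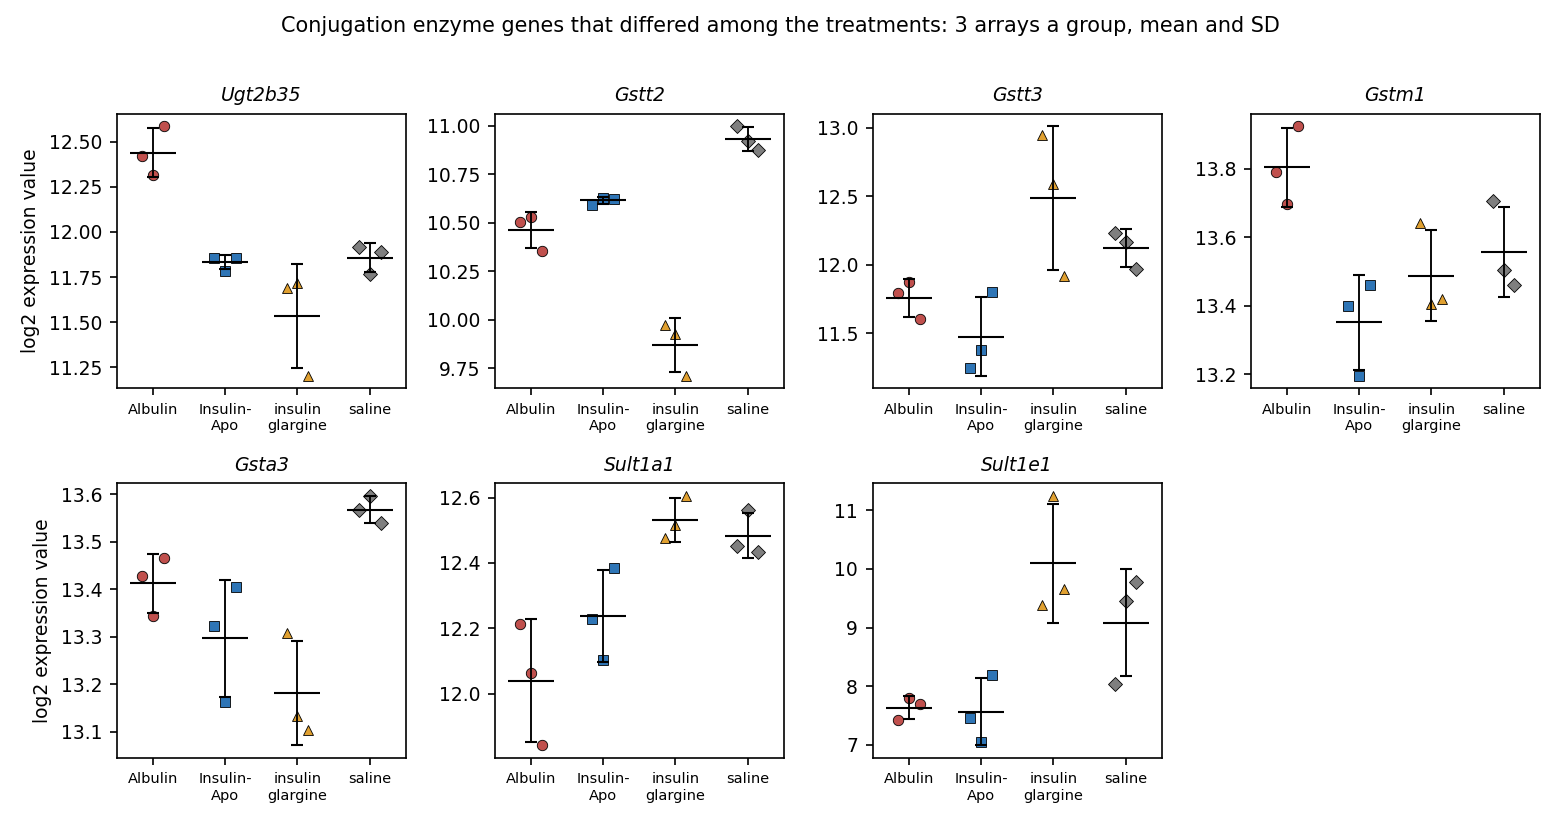
Log2 expression values in each array (vertical axis) of the 7 genes that differed among the 4 treatments, with the mean (long bar) and SD of the 3 arrays of a group, and an axis of its own for each gene. Ugt2b35 is high in the 3 Albulin arrays (12.31 to 12.58), Gstt2 is low in the insulin glargine arrays (9.71 to 9.97), and the saline arrays of Sult1e1 spread between 8.04 and 9.77.

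The SULT genes varied most between arrays of the same group. Their median SD within groups was 0.24 on the log2 scale, against 0.18 for UGT, 0.16 for GST and 0.11 for all probe sets, and it reached 1.16 in Sult3a2 and 0.75 in Sult1e1. Sult1e1 encodes estrogen sulfotransferase, which inactivates estrogens. On the log2 scale it was at 7.43, 7.80 and 7.69 after Albulin, 7.46, 7.06 and 8.19 after Insulin-Apo, 9.38, 11.25 and 9.66 after insulin glargine, and 8.04, 9.45 and 9.77 after saline. All 6 arrays of the fusion proteins were below all 3 insulin glargine arrays, and of these 6 only Insulin-Apo replicate 3 was above the lowest saline array. Against insulin glargine the difference was -2.46 for Albulin (standard error 0.49, adjusted p = 0.00737, limma) and -2.53 for Insulin-Apo (standard error 0.49, adjusted p = 0.00578, limma), or 0.182 and 0.173 of the insulin glargine level. Each call was kept in 18 of 24 alternatives. That of Albulin was lost without any Albulin replicate, Insulin-Apo replicate 1 or insulin glargine replicate 2 (log2 fold changes of -2.54 to -1.88). That of Insulin-Apo was lost without Albulin replicate 2, Insulin-Apo replicates 1 or 2, or insulin glargine replicate 2 (-2.53 to -1.95).

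Against saline, Sult1e1 had log2 fold changes of -1.45 after Albulin (adjusted p = 0.063, limma), -1.52 after Insulin-Apo (adjusted p = 0.0578, limma) and 1.01 after insulin glargine (adjusted p = 0.255, limma), none of them called. The first and second of these were called when saline replicate 1, the lowest saline array, was left out, with log2 fold changes of -1.97 (adjusted p = 0.0071, limma) and -2.04 (adjusted p = 0.0108, limma). Albulin and Insulin-Apo differed by 0.07, with a 95% confidence interval of -0.78 to 0.92.

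Sult1a1, the main phenol sulfotransferase of the liver, was lower after Albulin than after insulin glargine. Its log2 values were 12.21, 12.06 and 11.84 after Albulin, 12.23, 12.10 and 12.38 after Insulin-Apo, 12.47, 12.51 and 12.61 after insulin glargine, and 12.45, 12.56 and 12.44 after saline. The Albulin and Insulin-Apo arrays were all below the lowest insulin glargine and saline arrays. On the log2 scale the difference of Albulin from insulin glargine was -0.49 (standard error 0.10, adjusted p = 0.00782, limma), and from saline it was -0.44 (adjusted p = 0.0319, limma) with B under 0. The call against insulin glargine was kept in 11 of 24 alternatives. It was lost without any of 9 arrays (Albulin replicates 2 and 3, Insulin-Apo replicate 1 and every saline and insulin glargine replicate), with log2 fold changes of -0.52 to -0.39. That against saline was gained without Albulin replicate 1 (-0.53, adjusted p = 0.0313, limma).

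No SULT gene was called in a comparison with saline, and at an unadjusted p under 0.05 5 of the 14 were lower and 1 higher after Albulin, and 5 lower and 0 higher after Insulin-Apo and after insulin glargine. The shares of all probe sets that were lower at this threshold were 9.08%, 8.28% and 11.9% after Albulin, Insulin-Apo and insulin glargine. Sult1b1, which sulfates thyroid hormones, had log2 values of 9.49, 9.57 and 8.96 after Albulin, 9.62, 8.95 and 9.31 after Insulin-Apo, 9.87, 9.64 and 9.17 after insulin glargine, and 9.79, 10.56 and 10.26 after saline. Its log2 fold changes over saline were -0.86 (adjusted p = 0.0517, limma), -0.91 (adjusted p = 0.0462, limma) and -0.65 (adjusted p = 0.113, limma), and it was called after Albulin and after Insulin-Apo when saline replicate 1 was left out. Sult1d1, a catecholamine sulfotransferase in the mouse, had -0.44, -0.65 and -0.13. Sult2a8, which sulfates bile acids in the mouse, had -0.43, -0.20 and -0.61. Sult3a1 and Sult3a2 had values of -0.66 and -1.03 after Albulin, -0.79 and -1.38 after Insulin-Apo, and -1.09 and -2.07 after insulin glargine, with Insulin-Apo replicate 2 and insulin glargine replicate 3 lowest for both. Sult2b1, Sult4a1, Sult6b2 and Sult1c1 had log2 fold changes over saline between -0.07 and 0.17. All 6 Sult1 genes had negative values after Albulin (median -0.44) and after Insulin-Apo (median -0.45, or -0.28 without Insulin-Apo replicate 2), and 3 of 6 after insulin glargine.

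**Figure D3:**
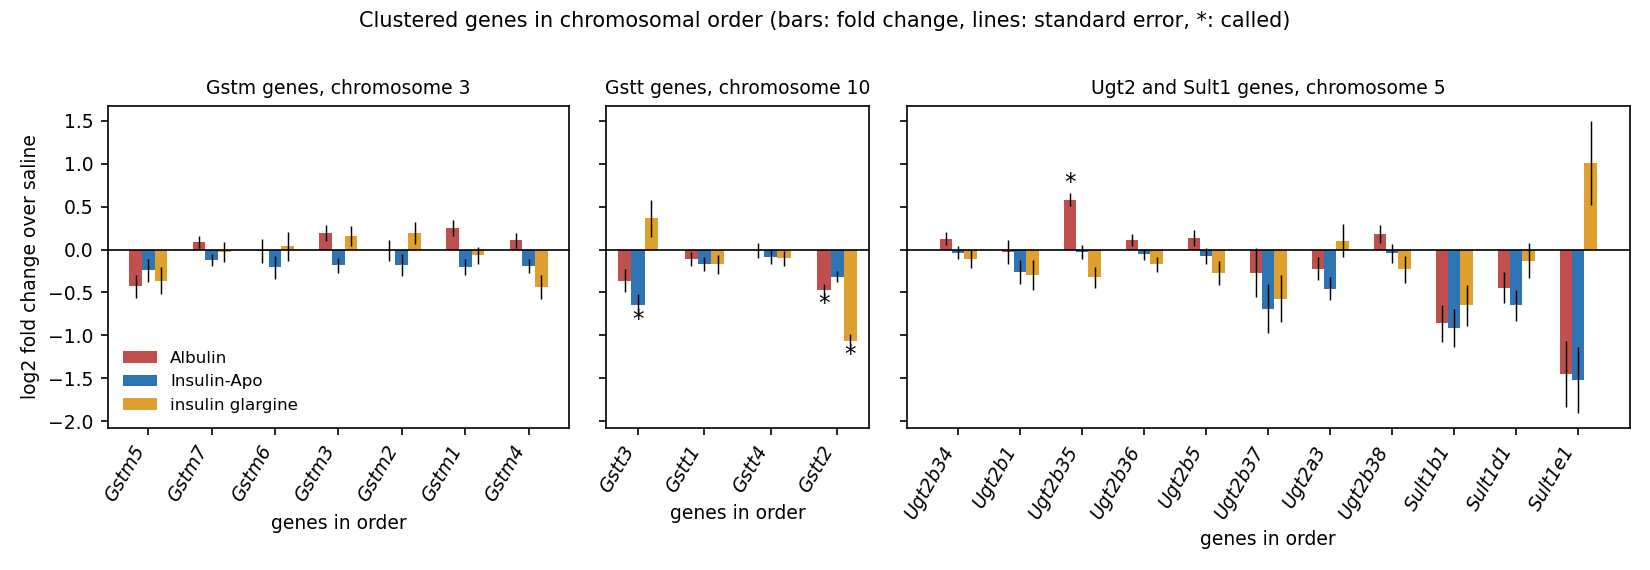
Log2 fold change over saline (vertical axis, with standard errors) after Albulin, Insulin-Apo and insulin glargine for the Gstm, Gstt and Ugt2 to Sult1 genes in their RefSeq order along chromosomes 3, 10 and 5, with a star at the end of the bar for called genes. Among the 8 Ugt2 genes the star is at Ugt2b35 after Albulin (0.58), and among the 4 Gstt genes the stars are at Gstt3 (-0.65) and Gstt2 (-0.47 and -1.06), at the ends of the cluster.

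Between the derivatives, 4 of the 43 genes were called between Albulin and insulin glargine (9.30%, against 4.35% of all probe sets). Gstt2 and Ugt2b35 were higher after Albulin, and Sult1a1 and Sult1e1 were lower. Between Insulin-Apo and insulin glargine 2 genes were called (4.65%, against 4.84%), Gstt2 being higher and Sult1e1 lower after Insulin-Apo. Both comparisons use the same insulin glargine arrays. Of the 43 genes, 36 had a higher mean after Albulin than after Insulin-Apo, with a median log2 fold change of 0.14, and 29 of 43 did (median 0.07) without Insulin-Apo replicate 2. In comparison with saline, 39 of the 43 genes had a negative log2 fold change after Insulin-Apo (median -0.18), 32 after insulin glargine (median -0.17) and 27 after Albulin (median -0.03).

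These medians moved with single arrays. Insulin glargine replicate 3 held the lowest value of 15 of the 43 genes and Insulin-Apo replicate 2 that of 14. Albulin replicate 3 held the highest value of 10 genes and saline replicate 2 that of 9. In saline replicates 1, 2 and 3 the median deviation of the 43 genes from their mean over 12 arrays was 0.08, 0.11 and 0.06. All comparisons with saline use these same saline arrays. In insulin glargine replicate 3 the median deviation of the 43 genes from their mean over 12 arrays was -0.26. It was -0.33 over the 24 of them with a mean over 11, against -0.11 over all 2597 probe sets with a mean over 11 and 0.04 over all probe sets. In Insulin-Apo replicate 2 the median deviation was -0.18, against -0.01 over all probe sets. Without insulin glargine replicate 3 the median log2 fold change of insulin glargine over saline was -0.07, with 31 of 43 negative, and the called gene was Gstt2. Without Insulin-Apo replicate 2 the median of Insulin-Apo over saline was -0.12, with 38 of 43 negative and 0 called. The part of these arrays in the results that are called with all arrays is given with each gene.

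**Figure D4:**
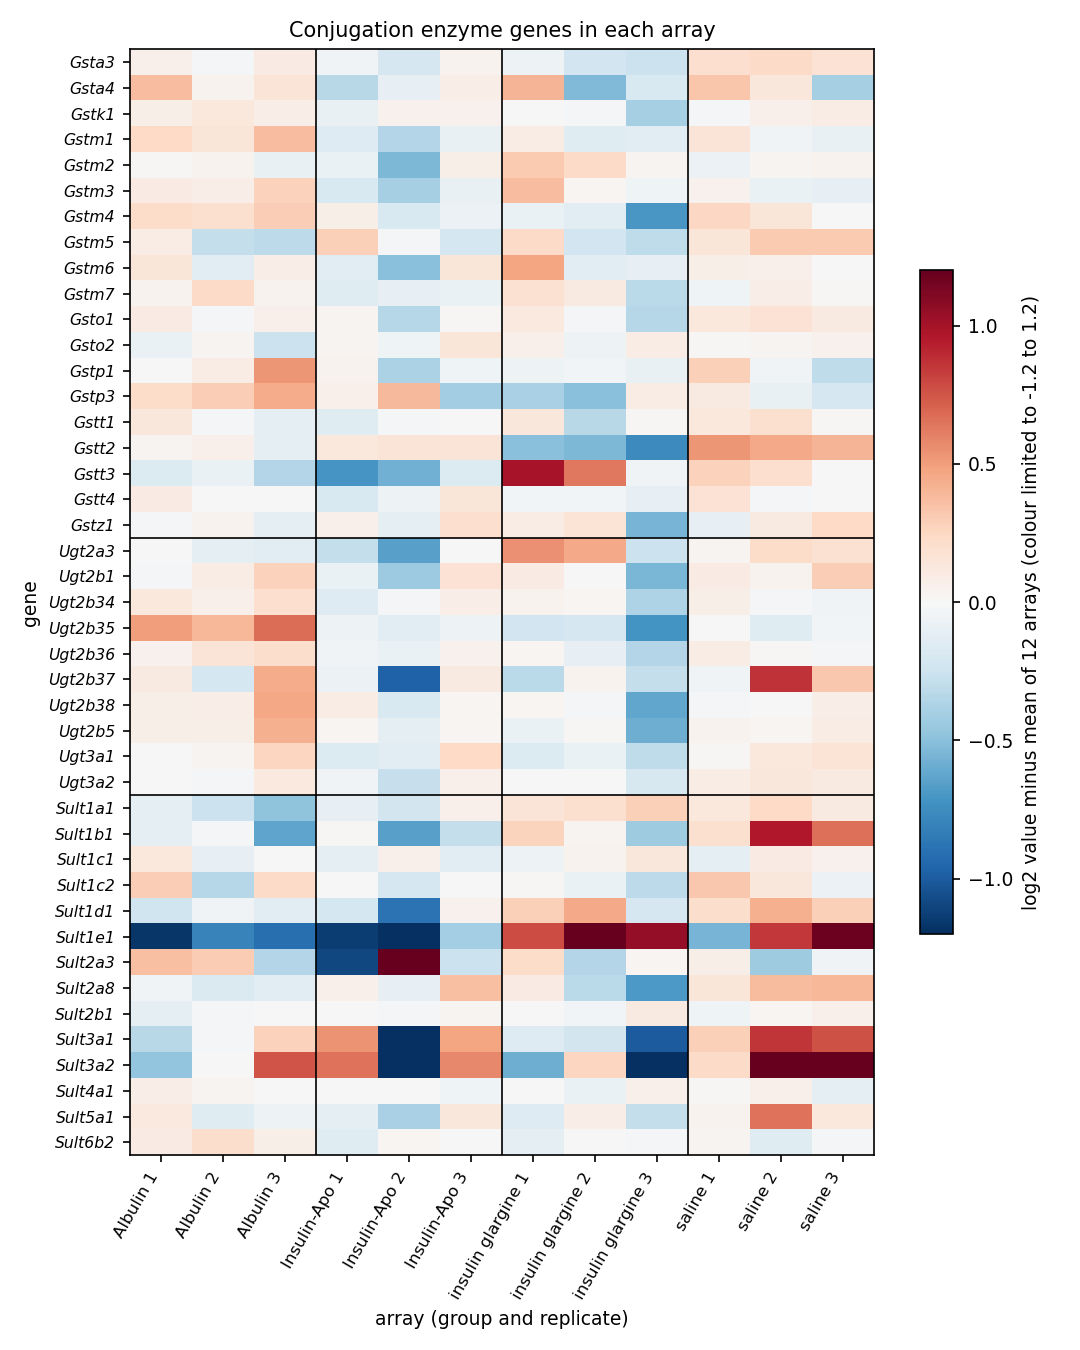
Deviation of the log2 value of each of the 43 genes (rows, by class) from its mean over the 12 arrays (columns, by group and replicate), red for higher and blue for lower, with the colour limited to -1.2 to 1.2. Insulin glargine replicate 3 and Insulin-Apo replicate 2 hold the lowest values of 15 and 14 genes, and the Sult1e1 row separates the 6 Albulin and Insulin-Apo arrays from the 3 insulin glargine arrays.

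Glutathione, the co-substrate of the GST enzymes, is made by glutamate-cysteine ligase, whose catalytic and modifier subunits are encoded by Gclc and Gclm. Of 11 measured genes of glutathione synthesis, recycling and breakdown, 3 rose after Albulin (Gclc, Gclm and Chac1) and 1 fell (Chac2). Over all probe sets 2.41% were called in that comparison, in either direction. The median log2 fold change of the 11 genes was 0.11. Gclc had log2 values of 13.17, 12.94 and 13.46 after Albulin, 12.35, 12.45 and 12.48 after Insulin-Apo, 12.60, 12.86 and 12.47 after insulin glargine, and 12.71, 11.92 and 12.31 after saline. The Albulin arrays were above all others, and the log2 fold change over saline was 0.87 (standard error 0.18, adjusted p = 0.0191, limma). Gclm rose by 0.37 after Albulin (standard error 0.07, adjusted p = 0.0144, limma), with 13.13, 13.09 and 13.25 after Albulin, 12.44, 12.41 and 11.86 after insulin glargine, and 12.85, 12.67 and 12.83 after saline. The Gclc call was kept in 12 of 22 alternatives and that of Gclm in 14. Gclc was lost without any of 7 arrays (Albulin replicates 1 and 3, saline replicates 2 and 3 and all Insulin-Apo replicates, log2 fold changes of 0.68 to 0.88), and Gclm without any of 4 (Albulin replicates 1 and 3 and saline replicates 2 and 3, 0.32 to 0.39).

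Chac1, which encodes an enzyme that degrades glutathione, rose by 1.69 after Albulin (standard error 0.20, adjusted p = 0.00147, limma), a call kept in all 22 alternatives. For Insulin-Apo its value was 0.93 (adjusted p = 0.0287, limma) with B under 0, and it was called when any Albulin replicate was left out (0.93 each time). Its paralog Chac2 fell by 0.75 after Albulin (adjusted p = 0.0103, limma), called in 17 of 22 alternatives and lost without Albulin replicates 1 or 3 or saline replicates 2 or 3 (-0.74 to -0.66). After Insulin-Apo 0 of the 11 genes were called, and after insulin glargine Cbs, which encodes an enzyme on the way to cysteine, rose by 0.40 (adjusted p = 0.00186, limma). Gclm and Chac1 were higher after Albulin (by 0.92 and 1.93) and after Insulin-Apo (by 0.63 and 1.17) than after insulin glargine. The call of Gclm between Insulin-Apo and insulin glargine was lost without any of 7 arrays (all Insulin-Apo replicates, Albulin replicates 1 and 2, and saline replicates 1 and 3, 0.62 to 0.64). Of 12 other genes in a list linked to glutathione, which also held the fatty acid amide hydrolase gene Faah, 0 were called against saline. Glo1, of methylglyoxal removal, and Hpgds, a prostaglandin D synthase of the GST fold, were higher after Albulin (by 0.81 and 0.66) and after Insulin-Apo (by 0.82 and 0.76) than after insulin glargine. The Glo1 calls were lost without Albulin replicates 2 or 3 (0.74 and 0.82) and without Insulin-Apo replicates 2 or 3 (0.77 to 0.82).

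Another list held target genes of Nrf2 outside conjugation. Of 14 measured, 5 rose and 0 fell after Albulin (median 0.33). After Insulin-Apo 1 rose and 1 fell (median 0.10), and after insulin glargine 1 rose and 0 fell (median 0.01). Of all probe sets tested, 356 rose and 270 fell after Albulin (2.41% called). The counts were 347 and 209 after Insulin-Apo (2.14%), and 583 and 676 after insulin glargine (4.84%). Gclc and Gclm are among the 14 genes. Osgin1, an oxidative stress response gene, had log2 values of 11.53, 10.99 and 11.49 after Albulin, 10.24, 11.08 and 10.97 after Insulin-Apo, 8.89, 10.03 and 9.45 after insulin glargine, and 9.80, 9.59 and 9.73 after saline. It rose by 1.63 after Albulin (standard error 0.20, adjusted p = 0.0019, limma) and by 1.06 after Insulin-Apo (standard error 0.20, adjusted p = 0.018, limma), calls kept in 22 and 14 of 22 alternatives. The call after Insulin-Apo was lost without Insulin-Apo replicates 2 or 3 or any saline replicate (log2 fold changes of 0.90 to 1.10). Txnrd1, a thioredoxin reductase, rose by 0.71 after Albulin (standard error 0.08, adjusted p = 0.00101, limma) in all 22 alternatives, with 11.43, 11.26 and 11.51 after Albulin, against 10.65, 10.66 and 10.76 after saline. Hmox1, heme oxygenase, rose by 1.02 after Albulin (standard error 0.18, adjusted p = 0.00928, limma), and its call was lost without Albulin replicate 3 (1.00) or saline replicate 2 (0.95). Nqo1, a quinone reductase often used as an Nrf2 marker, was not called in any comparison, and its value for Albulin against saline was 0.28 (adjusted p = 0.595, limma). Abcc3, an exporter of glucuronides, fell by 0.63 after Insulin-Apo (adjusted p = 0.0204, limma), a call lost without any Albulin or saline replicate (-0.65 to -0.62). Srxn1, sulfiredoxin, rose by 0.84 after insulin glargine (adjusted p = 0.00122, limma).

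The mRNA of Nrf2 itself, Nfe2l2, fell after Albulin and after insulin glargine. The arrays had log2 values of 11.10, 11.30 and 11.25 after Albulin, 11.41, 11.46 and 11.56 after Insulin-Apo, 10.45, 10.61 and 9.98 after insulin glargine, and 11.75, 11.54 and 11.80 after saline. It fell by 1.35 after insulin glargine (standard error 0.13, adjusted p = 9.04e-05, limma), in all 24 alternatives, and by 0.48 after Albulin (standard error 0.09, adjusted p = 0.011, limma), in 17 of 22. The call after Albulin was lost without Albulin replicate 1 or saline replicates 1 or 3 (log2 fold changes of -0.45 to -0.42). Of the 15 regulators measured, 2 fell after Albulin, 1 after Insulin-Apo and 2 after insulin glargine, where 1 rose. Over all probe sets, 2.41%, 2.14% and 4.84% were called in these comparisons. Nr1i3, the receptor CAR, had similar log2 fold changes after the 3 derivatives (-0.76, -0.73 and -0.78) and was called after Albulin (adjusted p = 0.0187, limma, in 12 of 22 alternatives). That call was lost without any of 7 arrays (all Albulin and saline replicates and Insulin-Apo replicate 1, -0.84 to -0.69), and those after Insulin-Apo and insulin glargine were gained without replicate 3 of each (-0.93 and -1.004). Nr1h4, the bile acid receptor FXR, fell by 0.44 after Insulin-Apo (adjusted p = 0.0178, limma), which was lost without Insulin-Apo replicates 1 or 2 or saline replicates 1 or 3 (-0.44 to -0.37). Ahr fell by 0.86 after insulin glargine (adjusted p = 0.00193, limma, in all 24 alternatives). Foxo1 rose by 0.95 after insulin glargine (adjusted p = 0.00895, limma, in 12 of 24 alternatives) and was lower after Albulin (log2 difference -1.11) and after Insulin-Apo (-1.13) than after insulin glargine. The Foxo1 call against saline was lost without any of 9 arrays (all insulin glargine and saline replicates, Albulin replicates 1 and 2 and Insulin-Apo replicate 3, 0.86 to 1.05). The genes with a FoxO motif in the promoter were Ugt2b35, Ugt2b37, Ugt2b38 and Sult1d1. Their log2 fold changes of insulin glargine over saline were -0.32, -0.57, -0.23 and -0.13, and none of the 4 was called. After Albulin, Ugt2b35 was called (0.58) and the others were not. A part of Foxo1 in these values was not tested.

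**Figure D5:**
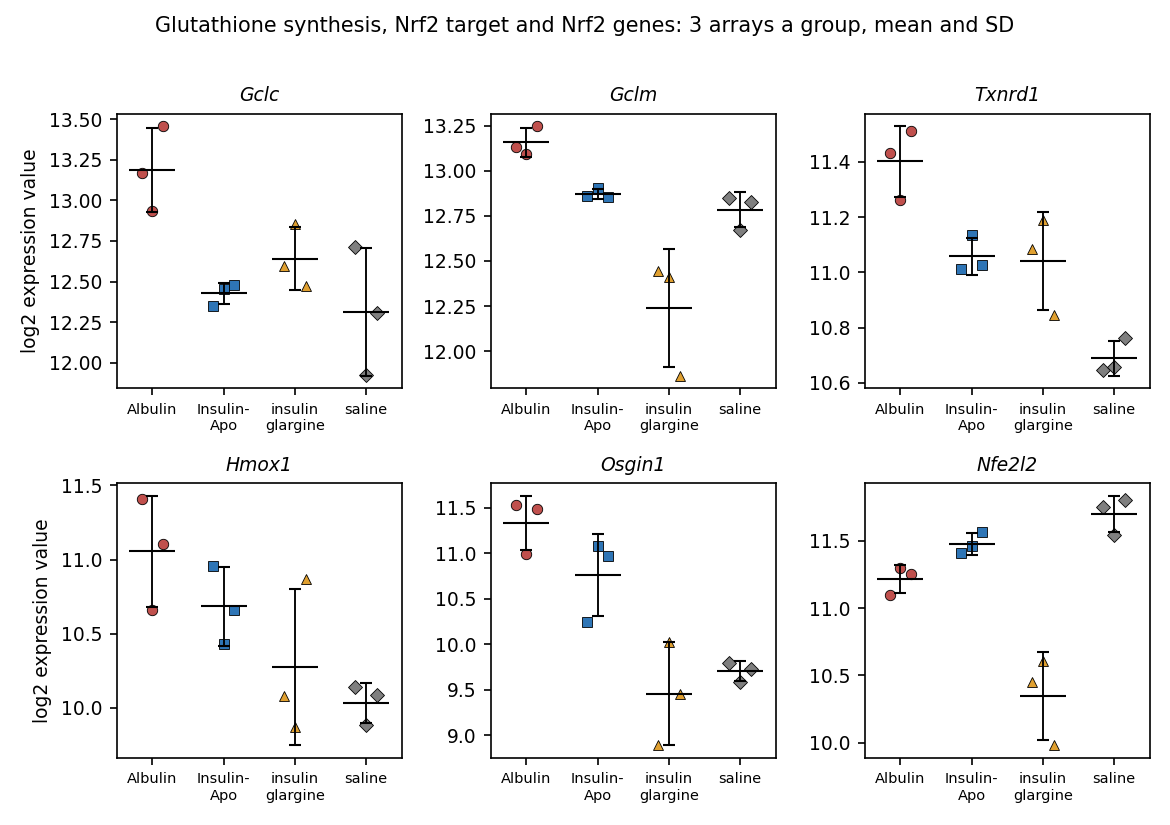
Log2 expression values in each array (vertical axis, of its own for each gene) of Gclc and Gclm, which encode glutamate-cysteine ligase, of the Nrf2 targets Txnrd1, Hmox1 and Osgin1 and of Nfe2l2, with the mean (long bar) and SD of 3 arrays a group. Gclc, Gclm and Txnrd1 are highest in the 3 Albulin arrays, and Nfe2l2 is lowest in the 3 insulin glargine arrays (9.98 to 10.61).

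UDP-glucuronic acid, the donor of glucuronidation, is made from UDP-glucose in the cytosol and carried into the endoplasmic reticulum by transporters of the SLC35 family. A list for its supply and removal, which also held Galm and other genes of sugar handling, had 8 measured genes. Of these, 1 rose and 0 fell after Albulin, and 0 were called after Insulin-Apo. After insulin glargine 2 fell, Slc35d2 and Galm. The shares of all probe sets called against saline were 2.41%, 2.14% and 4.84% after Albulin, Insulin-Apo and insulin glargine. Slc35d1, an SLC35 transporter of this donor, rose by 0.54 after Albulin (standard error 0.08, adjusted p = 0.00347, limma). Its log2 values were 11.41, 11.35 and 11.53 after Albulin, 11.11, 11.28 and 11.14 after Insulin-Apo, 10.72, 10.74 and 10.76 after insulin glargine, and 10.95, 10.80 and 10.92 after saline, so that the groups followed each other without overlap. The call was kept in 21 of 22 alternatives. The related Slc35d2 fell by 1.00 after insulin glargine (standard error 0.12, adjusted p = 0.000339, limma) in all 24 alternatives, and Galm, galactose mutarotase, by 0.79 (adjusted p = 0.00733, limma), a call lost without any of 10 arrays (-0.81 to -0.78) and kept without insulin glargine replicates 1 or 3. Ugdh, which encodes the dehydrogenase that makes UDP-glucuronic acid, averaged 12.73 ± 0.19 after Albulin, 11.98 ± 0.32 after Insulin-Apo, 12.46 ± 0.18 after insulin glargine and 12.17 ± 0.24 after saline (SD, n = 3 each) and was not called. Of 8 genes of PAPS supply and desulfation, Slc35b3, a PAPS transporter of the Golgi, rose by 0.56 after Albulin (adjusted p = 0.0178, limma, in 15 of 22 alternatives), and 0 others were called in any comparison. The call was lost without any saline replicate or Insulin-Apo replicate 3 (0.53 to 0.60). The PAPS synthase gene Papss2 averaged 12.46 ± 0.15, 12.26 ± 0.24, 12.66 ± 0.49 and 12.82 ± 0.12 after Albulin, Insulin-Apo, insulin glargine and saline (SD, n = 3 each).

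A list mostly of glycine, methyl and acetyl conjugation, which also held the sulfurtransferase gene Tst, had 14 measured enzymes. Of these, 0 were called after Albulin (median -0.17) or Insulin-Apo (median -0.20). After insulin glargine 4 fell, against 4.84% of all probe sets called (median of the 14 genes -0.52). Glyat, glycine N-acyltransferase, fell by 0.86 (standard error 0.08, adjusted p = 6.72e-05, limma), Acsm5 by 0.72 and Acsm1 by 0.75, both acyl-CoA synthetases that activate the acids to be conjugated, and Inmt, a methyltransferase of indolamines, by 1.41. The Acsm1 call was lost without saline replicate 2 (-0.68), and that of Inmt without any saline replicate or insulin glargine replicate 3 (-1.46 to -1.34). Glyat had log2 values of 12.27, 12.26 and 12.33 after Albulin, 12.23, 12.31 and 12.39 after Insulin-Apo, 11.51, 11.38 and 11.25 after insulin glargine, and 12.25, 12.15 and 12.33 after saline. The insulin glargine arrays were below all others. Glyat and Acsm5 were also lower after insulin glargine than after either fusion protein, in all 24 alternatives of each comparison. Of 12 measured transporters of conjugates and drugs, 2 fell after Insulin-Apo, Abcc3 and Slco2b1, and 1 after insulin glargine, Slco1b2. After Albulin 0 were called. The shares of all probe sets called were 2.14% after Insulin-Apo, 4.84% after insulin glargine and 2.41% after Albulin. The Slco2b1 call was lost without any Insulin-Apo or saline replicate or Albulin replicate 3 (-0.47 to -0.35). Of 8 measured P450 and related genes known as CAR and PXR targets, Cyp2b9 was called after insulin glargine (-0.35, adjusted p = 0.00738, limma, in 9 of 24 alternatives, and lost without any array but Albulin replicate 2, -0.39 to -0.29) and 0 after Albulin or Insulin-Apo.

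The lists held further calls against insulin glargine. Slc35d1 and Slc35d2 were higher after Albulin (by 0.69 and 1.26) and after Insulin-Apo (by 0.43 and 1.05), and the Slc35d1 call of Insulin-Apo was lost without Insulin-Apo replicate 2 (0.38). Nfe2l2 and Ahr were higher after Albulin (by 0.87 and 0.99) and after Insulin-Apo (by 1.13 and 0.75), as was Osgin1 (by 1.88 and 1.30). The call of Ahr after Insulin-Apo was lost without replicates 1 or 3 of Insulin-Apo or insulin glargine (0.61 to 0.76), and that of Osgin1 without any of 9 arrays (Albulin replicates 1 and 3, Insulin-Apo replicates 2 and 3, every saline replicate and insulin glargine replicates 1 and 3, 1.02 to 1.30). Alas1, the rate-limiting enzyme of heme synthesis, was higher after both fusion proteins, by 0.87 and 0.67, the second lost without any of 10 arrays (all but Insulin-Apo replicate 3 and insulin glargine replicate 3, 0.51 to 0.69). Ephx1, microsomal epoxide hydrolase, was higher after Albulin by 0.80, and Acsm1 by 0.63, which was lost without any of 10 arrays (all but Insulin-Apo replicate 2 and insulin glargine replicate 3, 0.48 to 0.66). Slco1b2, a hepatic uptake transporter, was higher by 0.38 after Albulin and by 0.34 after Insulin-Apo, lost without Albulin replicates 2 or 3 or insulin glargine replicate 2 (0.35 to 0.36) and without any of 10 arrays (all but Albulin replicate 1 and saline replicate 1, 0.31 to 0.37). After Insulin-Apo, Gusb, beta-glucuronidase, which cleaves glucuronides, Srxn1 and Slco2b1 were lower, with differences of -0.45, -0.64 and -0.54. The Gusb call was lost without any of 10 arrays (all but Insulin-Apo replicate 1 and insulin glargine replicate 3, -0.49 to -0.36), that of Srxn1 without any of 7 (all Insulin-Apo replicates, Albulin replicate 1, saline replicate 2 and insulin glargine replicates 1 and 2, -0.67 to -0.55) and that of Slco2b1 without Insulin-Apo replicate 2 or insulin glargine replicates 2 or 3 (-0.56 to -0.45). The Foxo1 calls were lost without Albulin replicates 1 or 2 or insulin glargine replicate 1, and without Insulin-Apo replicate 3 or insulin glargine replicate 1 (-1.10 to -1.001 over all of these).

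Markers of other cells were set beside these results, since in bulk liver fewer cells of a type and less RNA per cell cannot be told apart. Of 9 neutrophil markers, 4 rose after Albulin (S100a8, S100a9, Cxcr2 and Mmp8), where 2.41% of all probe sets were called. After Insulin-Apo (2.14% of all probe sets) and insulin glargine (4.84%) 0 were called, and none fell. Against insulin glargine, 5 were higher after Albulin (S100a8, S100a9, Cxcr2, Csf3r and Retnlg) and 4 after Insulin-Apo (the same without Retnlg). In these 2 comparisons 4.35% and 4.84% of all probe sets were called. All shares count both directions. The summed level of the 9 neutrophil markers on the log2 scale was 10.76 to 11.03 in Albulin arrays and 10.57 to 10.82 in Insulin-Apo arrays. It was 10.09 to 10.28 in insulin glargine arrays and 10.18 to 10.43 in saline arrays. Of 8 Kupffer cell markers 0 were called after Albulin or insulin glargine, and Marco rose by 0.93 after Insulin-Apo. None of 7 sinusoidal endothelial, 6 stellate, 5 cholangiocyte, 6 T and NK cell, 3 B cell and 2 erythroid markers was called against saline. Of 9 pericentral markers Lgr5 fell by 1.42 after insulin glargine, and 0 of 5 periportal markers were called. Against insulin glargine, Lgr5, Kdr and Fga were higher after both fusion proteins, Cd79b and Ms4a1 after Albulin, and Marco and Nkg7 after Insulin-Apo, with Krt19 lower after Insulin-Apo. Of the hepatocyte markers, Fga, which is also an acute phase gene, rose by 0.35 after Albulin and by 0.32 after Insulin-Apo. The part of neutrophils or of zonation in the values of the conjugation enzyme genes was not tested.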

How the data were processed

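Liver RNA of 12 arrays, 3 each from mice given Albulin, Insulin-Apo, insulin glargine or saline, had been measured on Mouse Gene 1.0 ST arrays (Affymetrix). The deposited values are log2 expression values, background-corrected and normalized by the authors with RMA. The sources used here give neither its version nor the annotation build, nor whether the 12 arrays were normalized as a single set. RMA compresses low values, and closely related genes can share probes.

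Groups came from the sample labels. Probe sets with a value over 5 in 2 or more arrays of any group were tested with limma 3.58.1 in R 4.3.3. Comparisons among Albulin, Insulin-Apo and saline used their 9 arrays (25989 probe sets), and those with insulin glargine and the F test used all 12 (26027 probe sets). A call meant B over 0 at a prior proportion of 0.01, or an adjusted p under 0.05 for the F test. The procedure was tested on simulated data. Plots were made in Python 3.11.15 (matplotlib 3.10.9). The 10 probe sets that carry several symbols, among them a matching one, were left out.

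The genes named with values in every array are those called in a comparison or by the F test, with Sult1b1, Ugt2a3, Ugdh, Papss2, Nqo1 and other uncalled genes named after their values were seen. From the other lists the called genes are named, those beyond the 4 with the smallest p per list and comparison after their values were seen. The members and lists were chosen with earlier results of these data known. Lists and alternatives (filters, scaling, replicate block, prior variance, array weights, arrays in the fit, call rule, probe sets of a gene, and each array left out) are described by counts, with no test of a list as a whole. Promoters were taken from RefSeq (GRCm38.p6). With 3 arrays in each group, precision is limited by their number.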

Additional observations from a re-analysis of the deposited data

How the results depend on the processing

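The counts of called genes moved with the settings. With 1 array left out at a time, 2 to 4 genes were called for Albulin versus saline, 0 to 3 for Insulin-Apo versus saline, 1 to 3 for insulin glargine versus saline, 1 to 2 for Albulin versus Insulin-Apo, 2 to 4 for Albulin versus insulin glargine, 1 to 4 for Insulin-Apo versus insulin glargine, and 4 to 11 by the F test. Insulin-Apo versus saline gave 0 genes with all 12 arrays in a fit and with only the arrays of the 2 groups, 3 with an adjusted p under 0.05 as the rule, and 2 with a log2 change of at least 0.58 added, a rule that left 1 for Albulin versus saline. Insulin glargine versus saline gave 1 gene with arrays centred on their medians, with array quality weights and with only the arrays of the 2 groups. Albulin versus Insulin-Apo gave 1 gene with arrays centred on their medians, with all 12 arrays, with only the arrays of the 2 groups and under either rule on the adjusted p. Insulin-Apo versus insulin glargine gave 1 gene with a robust prior variance and with only the arrays of the 2 groups, and 4 with array quality weights. The F test gave 13 genes with array quality weights. No called log2 fold change changed its sign under any alternative. The values of single genes under the alternatives cover every comparison of each gene called in any of them, cell markers aside. Of these values, 4833 kept their side of the threshold, many of them with no call to lose. A call was lost in 314 and gained in 97, so these counts give no share of calls kept. The cause of these changes was not tested.

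The labels do not say whether the replicate numbers pair the arrays, and no pairing was visible in the values. With 3 arrays in each group, the correlations below cannot exclude a small shared part. Deviations from the group means correlated between arrays of the same number at -0.27 to 0.15 (2 of 18 pairs over 0.1), and between arrays of different numbers at -0.17 to 0.27. With the replicate number as a block, 0 genes were called for Insulin-Apo versus saline, 1 for insulin glargine versus saline, 2 for Albulin versus saline, 2 for Albulin versus Insulin-Apo, 3 for Albulin versus insulin glargine, 2 for Insulin-Apo versus insulin glargine and 7 by the F test.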

Other observations

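The 10 probe sets with several symbols of these families were left out of the counts above. Of these, 9 passed the filter, and 0 were called by limma in a comparison or by the F test. At an unadjusted p under 0.05, 3 had higher values after Albulin than after Insulin-Apo (6.44% of all probe sets). These 3 (10587331, 10595148 and 10587339) carry the same annotation to Gsta1, Gsta2 and related genes, with log2 differences of 1.62, 0.71 and 0.24. At this threshold 2 were lower after Insulin-Apo than after insulin glargine (10.9%), namely 10587331 and the Ugt1a probe set 10348354. The Ugt1a probe set was also lower after Insulin-Apo than after saline (8.28%). Probe set 10587331 was higher after insulin glargine than after saline (10.6%) and differed by the F test. The probe set annotated to 8 Ugt1a genes (10348354), which share their last exons, averaged 12.79 ± 0.09 after Albulin, 12.66 ± 0.10 after Insulin-Apo, 12.87 ± 0.06 after insulin glargine and 12.83 ± 0.06 after saline (log2, SD, n = 3 each). On it Insulin-Apo differed by -0.17 from saline (adjusted p = 0.254, limma) and by -0.21 from insulin glargine (adjusted p = 0.106, limma), neither of them called. Gsta1, Gsta2 and related genes share 3 probe sets, of which 10587331 had log2 values of 7.06, 6.61 and 7.40 after Albulin, 4.88, 5.05 and 6.28 after Insulin-Apo, 8.92, 8.23 and 5.84 after insulin glargine, and 5.57, 6.90 and 6.20 after saline. On 10587331 the difference of Insulin-Apo from insulin glargine was -2.26 (adjusted p = 0.0402, limma) with B under 0. The Albulin and Insulin-Apo arrays did not overlap on this probe set. They overlapped on the other two, with 9.14 to 9.65 after Albulin and 8.504 to 9.17 after Insulin-Apo on 10595148, and 6.09 to 6.41 after Albulin and 5.83 to 6.14 after Insulin-Apo on 10587339. A probe set shared by Sult2a1 and Sult2a2 (10550163) was at 10.997 in Insulin-Apo replicate 1, and between 11.82 and 12.69 in the other 11 arrays. That array was also the lowest on the probe set of 4 Sult2a genes (10560111), at 8.90 against 9.81 to 10.23 in the others. Group means were 10.01 to 10.39 and 11.31 to 11.65 on the probe sets of Gstp1 and Gstp2 (10361152 and 10464586), 12.97 to 13.22 on that of Ugt3a1 and Ugt3a2 (10427624), and 4.28 to 4.38 on that of Ugt2a1 and Ugt2a2 (10531078), which did not pass the filter.

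The second probe set of Gstm3 (10501218) differed among the 4 treatments by the F test (adjusted p = 0.0287, limma). The brighter probe set used above had an adjusted p of 0.119 in this test. By its number the second lies between the probe sets of Gstm6 (10501208) and Gstm2 (10501222), as Gstm3 does on chromosome 3. The number of the brighter probe set (10362511) is close to that of Sult3a1 (10362464), a gene of chromosome 10. Which of the 2 reads Gstm3 was not tested. The second probe set had log2 values of 10.27, 10.17 and 10.67 after Albulin, 9.55, 9.41 and 9.85 after Insulin-Apo, 10.77, 10.72 and 10.05 after insulin glargine, and 10.14, 9.63 and 9.29 after saline. The brighter probe set had 12.40, 12.38 and 12.58 after Albulin, 12.11, 11.90 and 12.21 after Insulin-Apo, 12.67, 12.32 and 12.24 after insulin glargine, and 12.35, 12.22 and 12.20 after saline. Insulin-Apo had the lowest group mean on both. Neither probe set was called in a comparison of 2 groups. With B under 0, the second had a log2 fold change of 0.82 for insulin glargine over saline (adjusted p = 0.0366, limma). Its difference of Insulin-Apo from insulin glargine was -0.91 (adjusted p = 0.0232, limma), also with B under 0.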
